A study of Caenorhabditis elegans with 4 samples.

Results

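The regions described are the MRG-1 binding peaks on chromosome II of *Caenorhabditis elegans*, taken as every row assigned to that chromosome in the peak list of each of 2 chromatin immunoprecipitation and sequencing (ChIP-seq) libraries. They numbered 536 of 3158 peaks in replicate 1 and 473 of 2876 peaks in replicate 2. Both libraries were made with the antibody SDQ3927, raised to MRG-1, from early embryos of the wild-type strain N2 kept at 20 °C, a population with males and hermaphrodites. The embryos were bleached out of gravid adults from liquid culture and fixed in 1.85% formaldehyde for 30 min. The series also holds 2 input DNA libraries from the same strain and stage, whose values were not analysed here. Whole embryos were used, so a peak cannot be assigned to a cell type. Nothing in the labels says that the replicates came from separate cultures, so their spread may be technical.

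MRG-1 is the worm relative of mammalian MRG15, a protein whose chromodomain binds histone H3 methylated at lysine 36, a mark of the bodies of transcribed genes. The mother supplies MRG-1 to the embryo, and without it the primordial germ cells of the worm do not survive. Worm autosomes have a central part rich in conserved and broadly expressed genes and a pair of arms with more repeats, more recombination and more methylation of histone H3 at lysine 9. Worm chromosomes have no single centromere, so the arms are defined by position along the chromosome.

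Coordinates are those of WormBase WS220, counted from 1. The chromosome lengths are not in the lists, so the span of chromosome II was taken to end with the last peak of any list, at 15263412. The arms are the outer 25% on either side, from 1 to 3815853 and from 11447560 to 15263412, and the centre is the middle 50%. A peak counts towards the part that holds its midpoint, and coverage is the share of bases inside peaks. Rank is the percentile of the authors' peak score among all nuclear peaks of the same list, from near 0 for the weakest to 100 for the strongest. Read depth is unknown for every list, and errors are the SD over the replicate lists (n = 2).

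In the replicate lists, the MRG-1 peaks of chromosome II were mostly a few kilobases wide. Width depends on the list, since the series-wide peaks of the chromosome had a median width of 343 bp. In replicate 1 the 536 peaks had a median width of 2532.5 bp, with quartiles of 1618 and 4510 bp, and ran from 889 to 14587 bp. In replicate 2 the 473 peaks had a median width of 2868 bp, with quartiles of 1721 and 4752 bp, and ran from 887 to 17692 bp. The lists covered 1.84 Mb and 1.74 Mb, or 12.0% and 11.4% of the span, with a mean of 11.7% ± 0.440 (SD, n = 2). Domains of 5000 bp or more numbered 111 in replicate 1, which was 20.7% of the peaks there against 16.9% in the whole list. In replicate 2 they numbered 108, or 22.8% against 18.9% in the whole list. These broad domains held 44.6% of the covered bases of chromosome II in replicate 1 and 47.3% in replicate 2. The share of broad domains on II was above that of each other autosome in both lists, but chromosome III was nearly equal in replicate 2, at 22.8%, and the difference was not tested.

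Peaks on chromosome II ranked somewhat above the middle of their lists, with a median rank of 54.4 in replicate 1 and 57.9 in replicate 2. The medians of the other autosomes ran from 49.6 to 53.3 in replicate 1, against 48.6 to 56.1 in replicate 2. Wide peaks tended to have high scores. Spearman's rho between width and rank was 0.80 over 536 peaks and 0.82 over 473 peaks, given as a description, since the peaks of a list share a library and a caller. The plot of width against rank shows exceptions, wide domains with middling or low scores.

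**Figure D1:**
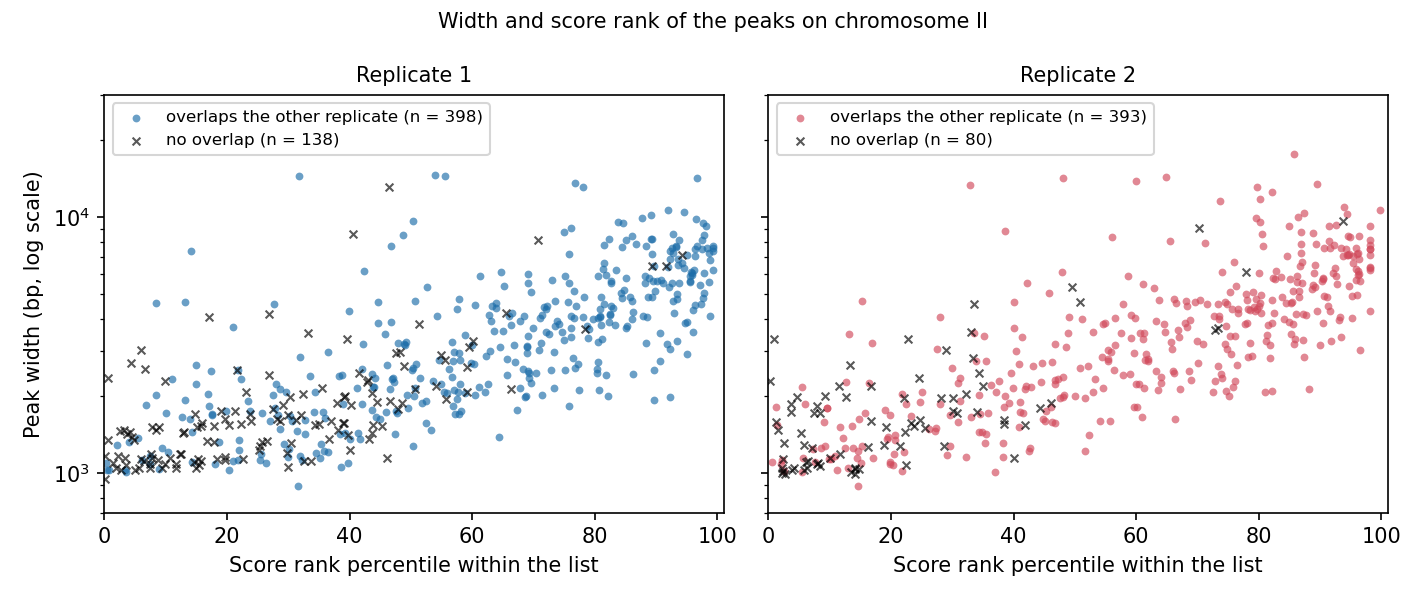
Width of each MRG-1 peak on chromosome II in bp (log axis) against its score rank percentile within the list, replicate 1 on the left and replicate 2 on the right. Coloured points overlap a peak of the other replicate (398 and 393 peaks), and crosses do not (138 and 80 peaks); the crosses lie mostly at the narrow, low-ranking end.

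The highest-ranking domains found in both replicates lay in all 3 parts of the chromosome. By mean rank, 5 of the first 10 lay in the right arm, 4 in the centre and 1 in the left arm. The first was a central domain from 7045756 to 7055196 in replicate 1, 9441 bp wide, with a rank of 97.7. Its replicate 2 counterpart ran from 7046216 to 7056907 and had a rank of 99.8, with the highest score of chromosome II in that list. The next in order were 3 domains with a score of exactly 3100 in both lists, a value shared by 4 peaks of chromosome II in replicate 1 and 10 in replicate 2, so their order is not informative. They started at 10867650, 11975116 and 14150911 in replicate 1 and were 7702, 7355 and 6227 bp wide there. Their outlines differed little between the libraries at 10867650, where the starts were 34 bp apart and the ends 94 bp apart, and more at 14150911, where the ends were 1387 bp apart.

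The other domains of the first 10 had similar widths. In replicate 1 they spanned 8182043 to 8188098 and 11233098 to 11241233 in the centre, and 14794404 to 14801923, 14059332 to 14066146 and 14347442 to 14352992 in the right arm. All 10 were between 5551 and 9441 bp wide in replicate 1 and between 6229 and 10692 bp in replicate 2. The only domain of the left arm among them ran from 215054 to 222638 in replicate 1, against 215334 to 221976 in replicate 2. It lay close to the left end of the chromosome, outside the sparse stretch described below, with ranks of 99.3 and 95.3.

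None of the 5 widest shared domains was among those 10. The widest by mean width was in the centre, from 4695828 to 4710054 in replicate 1 (14227 bp) and from 4695456 to 4713147 in replicate 2 (17692 bp). Its ranks were 96.7 and 85.7. A second central domain, from 9043453 to 9057931, was 14479 bp wide with a rank of only 55.6 in replicate 1, and 14304 bp wide with a rank of 64.8 in replicate 2. In the right arm a domain from 14354909 to 14369495 was 14587 bp wide, the widest of replicate 1 on this chromosome, with ranks of 54.0 and 59.9. It lay less than 2 kb to the right of the high-ranking domain that ends at 14352992. In replicate 1 a peak of 1866 bp with a rank of 38.9 lay between them, and in replicate 2 no peak did. The remaining pair of the 5 widest started at 8033672 and 11868314 in replicate 1, with widths of 13131 and 13573 bp and ranks of 78.0 and 76.7.

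The arms and the centre differed in the number of peaks, their width and their score. In the left arm MRG-1 peaks covered 6.66% in replicate 1 and 4.39% in replicate 2. The centre was covered at 13.2% in replicate 1 and 15.1% in replicate 2, and the right arm at 15.1% and 11.0%. The left arm was therefore the poorest part in each list, by a margin larger than the difference between the replicates. The order of the centre and the right arm was not settled, since the right arm was higher in replicate 1 and the centre was higher in replicate 2. On the log2 scale the right arm differed from the centre by -0.13 ± 0.46 (SD, n = 2), and the lists gave 0.20 (replicate 1) and -0.46 (replicate 2). Set against both arms together, the centre had 1.21 times their coverage in replicate 1 and 1.96 times in replicate 2, a log2 ratio of 0.63 ± 0.49 (SD, n = 2). The order was the same in both lists. A two-sided exact sign-flip test gave p = 0.5, as it does for any 2 lists of the same sign, so it cannot weigh this contrast.

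Peak number was also lowest in the left arm. There were 94 and 68 peaks in the left arm, 255 and 272 in the centre, and 187 and 133 in the right arm, for replicates 1 and 2. Per Mb the left arm had 24.6 and 17.8 peaks, the centre 33.4 and 35.6, and the right arm 49.0 and 34.9. The right arm thus had more peaks per Mb than the centre in replicate 1, while the values of replicate 2 were nearly equal. Against both arms together, the centre had 0.907 of their peaks per Mb in replicate 1 and 1.35 times in replicate 2, so in peak number the direction differed between the lists (log2 0.15 ± 0.41, SD, n = 2).

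Peaks of the centre were the wide ones. Median width was 3352 bp in replicate 1 and 3569 bp in replicate 2 in the centre, against 2173 and 2076 bp in the left arm and 2151 and 2355 bp in the right arm. The replicates of the centre did not overlap those of either arm. Broad domains of 5000 bp or more made up 28.2% and 30.5% of the peaks of the centre, 11.7% and 5.88% of those of the left arm, and 15.0% and 15.8% of those of the right arm. Score rank followed width, with medians of 63.9 and 63.1 in the centre, 47.4 and 48.6 in the left arm, and 46.1 and 50.1 in the right arm. The median widths and ranks of the arms were close to each other, while the share of broad domains was lower in the left arm in each list.

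**Figure D2:**
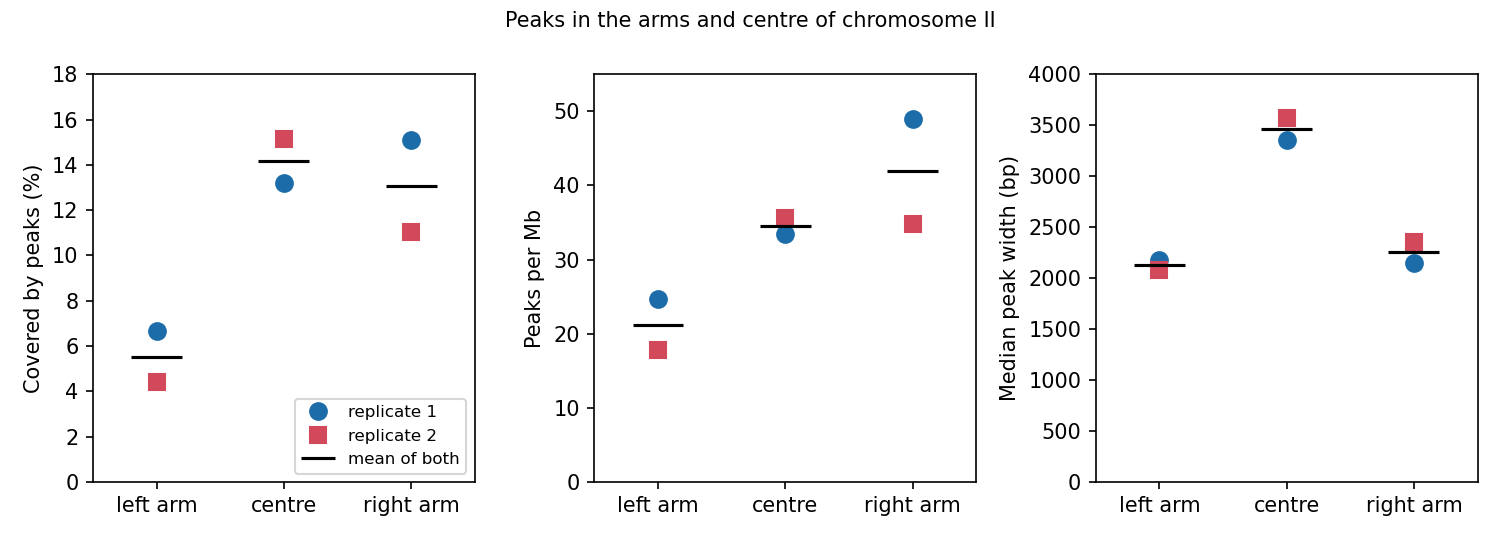
Coverage by MRG-1 peaks (%), peaks per Mb and median peak width (bp) in the left arm, centre and right arm of chromosome II; circles are replicate 1, squares replicate 2 and black lines their mean. The left arm is lowest in coverage (6.66% and 4.39%) and in peaks per Mb in each list, and the centre has the widest peaks (3352 and 3569 bp).

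The centres of the other autosomes gave a frame for these widths. Their median peak widths ran from 2696.5 to 3041 bp in replicate 1, against 2796 to 3133 bp in replicate 2, below the value of chromosome II in each list. Median ranks in those centres ran from 52.6 to 60.7 in replicate 1, against 50.1 to 59.4 in replicate 2, again below chromosome II. The left and right arms of II lay near the other arms, whose median widths ran from 1696 to 2174.5 bp in replicate 1, against 1893 to 2333.5 bp in replicate 2; the right arm of II was above that range in replicate 2, at 2355 bp. These are orders among 5 autosomes in 2 libraries, and no test was run on them.

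The contrast between the poor left arm and the richer right arm was examined next. The left arm had 0.441 of the coverage of the right arm in replicate 1 and 0.398 in replicate 2. On the log2 scale this was -1.18 and -1.33, with a mean of -1.25 ± 0.10 (SD, n = 2). The two-sided exact sign-flip test again gave p = 0.5, which any 2 lists of the same sign give, so it cannot weigh the contrast. The contrast was also chosen with earlier results of these data known. Most of the contrast was in peak number: the left arm had 0.503 and 0.511 of the peaks per Mb of the right arm. Mean peak width contributed less, with left-to-right ratios of 0.877 and 0.779.

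The left arm held fewer peaks than the right in every rank class. Among peaks ranked over 75, the left arm held 29 against 46 in the right arm in replicate 1, and 20 against 34 in replicate 2. Among peaks ranked 25 or lower it held 18 against 51 in replicate 1 and 21 against 33 in replicate 2. Over the 4 rank classes the left-to-right ratio of peak number ran from 0.353 to 0.630 in replicate 1, against 0.394 to 0.636 in replicate 2. Broad domains of 5000 bp or more were also scarce in the left arm, with 11 against 28 in replicate 1 and 4 against 21 in replicate 2.

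The left arm was not evenly poor. Its first 0.5 Mb, an extent chosen after the values were seen, held 32 peaks in replicate 1 and 25 in replicate 2 and was covered at 18.3% and 13.8%. The next stretch, from 0.5 to 1 Mb, held only 4 and 5 peaks, with coverage of 3.12% and 2.19%. From 1 to 4 Mb there were 19.7 and 13.3 peaks per Mb, with coverage of 4.96% and 3.03%. At the other side of the chromosome, the stretch from 12 to 15 Mb had 47.3 and 30.7 peaks per Mb and coverage of 12.9% and 8.46%. The most covered 1 Mb window of the chromosome in each list, from 11 to 12 Mb, lay across the boundary of the right arm and was covered at 22.0% in replicate 1 and 21.8% in replicate 2. With arms of 20% in place of 25%, which moves both arm boundaries outwards, the log2 left-to-right ratio was -0.86 ± 0.05 (SD, n = 2).

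Arms were unequal on the other autosomes too, though not always in this direction. On chromosome III the left arm was also the poorer, with a log2 ratio of -0.65 in replicate 1 and -0.78 in replicate 2. On I, IV and V the left arm was the richer in each list, with log2 ratios from 0.22 to 0.66 in replicate 1, against 0.10 to 0.50 in replicate 2. Chromosome II had the lowest ratio of the 5 autosomes in each list. The plot of the arm ratios shows both lists of each autosome, and the difference between chromosomes was not tested.

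**Figure D3:**
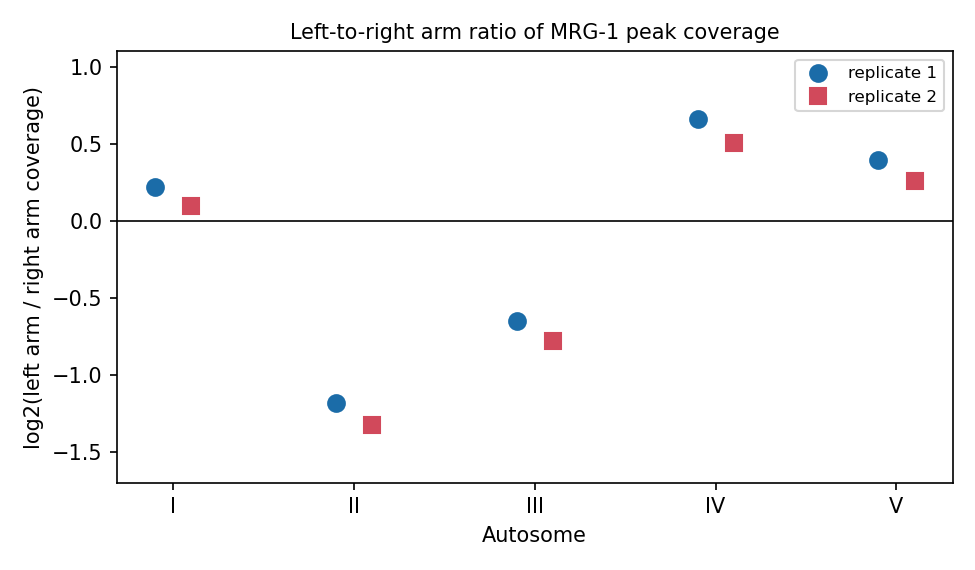
Left-to-right arm ratio of MRG-1 peak coverage on a log2 scale for the 5 autosomes; circles are replicate 1 and squares replicate 2, and 0 marks equal arms. Chromosome II lies lowest, at -1.18 and -1.33, followed by III, while I, IV and V lie above 0.

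At a finer scale, chromosome II was divided into 153 windows of 100 kb, the last of them shorter. Peaks of replicate 1 touched all but 17 windows and those of replicate 2 all but 14. Free of peaks in both lists were 8 of the 153 windows, where 11.6% of the windows of all nuclear chromosomes were free. That background includes the X chromosome, covered at only 1.70% and 2.55%, and the share on autosomes alone was not computed. Of the 8 free windows of II, 4 lay in the left arm, starting at 1.7, 2.6, 3.6 and 3.7 Mb. Another 3 lay in the centre, at 4.1, 4.5 and 10.9 Mb, and 1 in the right arm, at 12.5 Mb. With replicate 1 alone 17 windows were free and with replicate 2 alone 14, so the number depends on the use of both lists.

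By the mean of the lists, the most covered window, from 5.6 to 5.7 Mb in the centre, held 8 peaks in each list and was covered at 39.1% in replicate 1 and 49.7% in replicate 2. The window from 14.3 to 14.4 Mb in the right arm followed, with 41.0% and 38.3%. Next came 11.6 to 11.7 Mb, just inside the right arm, with 36.8% and 36.6%, and 5.3 to 5.4 Mb in the centre, with 35.0% and 34.6%. The fifth, from 8.0 to 8.1 Mb, had 35.1% and 28.8%. The order within a list differed: in replicate 1 the window at 14.3 Mb was the highest, and the one from 13.8 to 13.9 Mb, at 35.7%, was above the windows at 5.3 and 8.0 Mb. In both lists at least 20% was covered in 20 windows, 15 of them in the centre, 4 in the right arm and 1 in the left arm. That window of the left arm ran from 0.2 to 0.3 Mb, with 10 peaks and 33.2% in replicate 1 and 6 peaks and 21.9% in replicate 2.

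The replicate profiles followed each other window by window. Spearman's rho of coverage was 0.88 and Pearson's r was 0.86 over 153 windows, which share a chromosome and are not independent. Within the parts rho was 0.83 over 38 windows of the left arm, 0.89 over 76 of the centre and 0.92 over 39 of the right arm. The level differed by part all the same. Replicate 1 was the higher in 26 windows of the left arm and the lower in 8, and in the right arm it was the higher in 34 and the lower in 4. In the centre replicate 2 was the higher in 54 windows and the lower in 19. The shift was not particular to chromosome II. On I, III, IV and V replicate 1 also had the higher coverage in both arms, and replicate 2 in the centre. Read depth was not available, and its part in this shift was not tested.

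**Figure D4:**
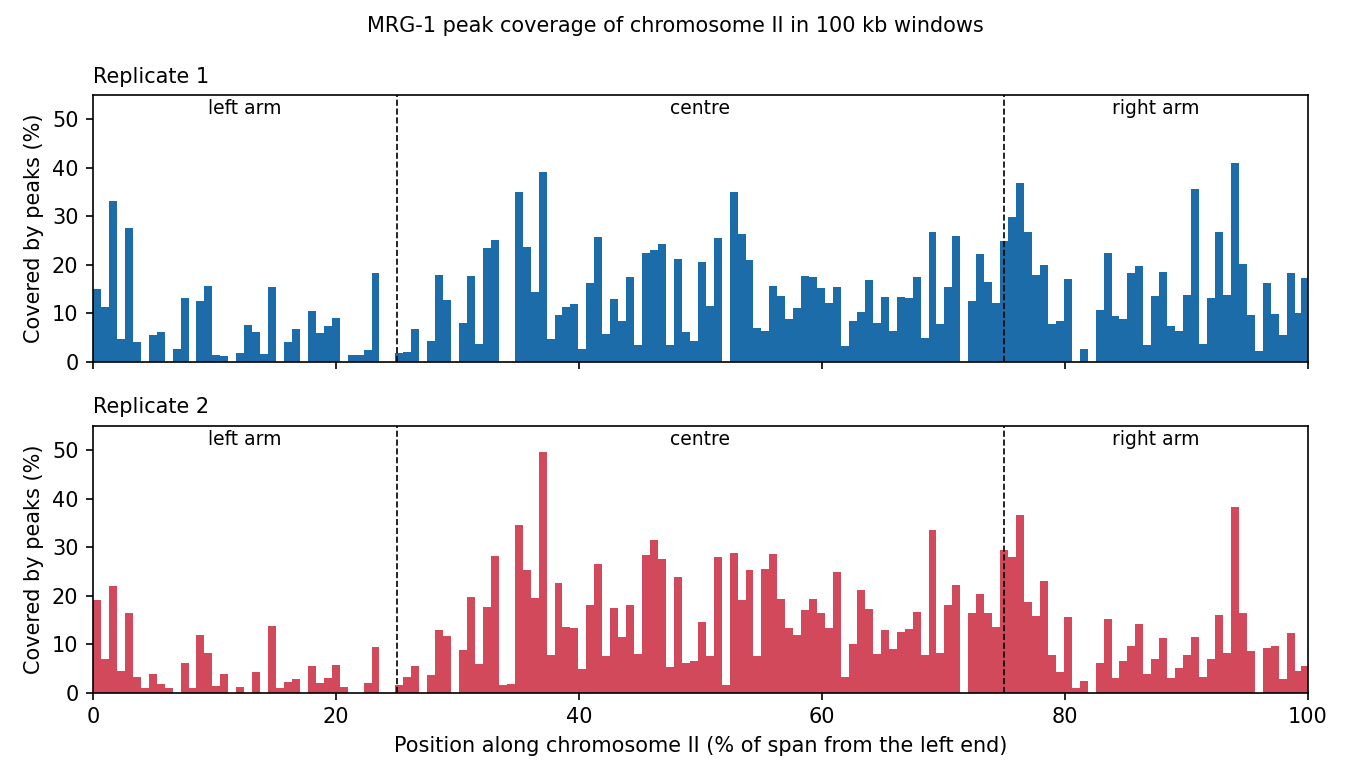
Share of each 100 kb window of chromosome II covered by MRG-1 peaks (%), along the chromosome as % of its span from the left end, replicate 1 above and replicate 2 below; dashed lines mark the arm boundaries at 25% and 75%. Coverage is low over most of the left arm outside its first 0.5 Mb, and the tallest bars, at 39.1% and 49.7% in the centre and 41.0% and 38.3% in the right arm, stand at the same windows in both replicates.

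For its length, the left arm had the most long stretches without an MRG-1 peak. Gaps of 100 kb or more numbered 13 and 13 in the left arm, for replicates 1 and 2. The centre, with 7.63 Mb, had 13 and 8, and the right arm had 5 and 7. In replicate 1 the median distance between neighbouring peaks on II was 9374 bp and 31 distances were 100 kb or more. In replicate 2 the median was 13119 bp and 28 distances were 100 kb or more. These long gaps took up 30.6% and 28.3% of the span. Where the lists were joined, 26 stretches of 100 kb or more held no peak of either replicate, 13 of them in the left arm, 8 in the centre and 5 in the right arm. In the left arm they added up to 1.99 Mb of its 3.82 Mb, and in the right arm, which is as long, to 0.585 Mb.

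The longest stretch free in both lists ran from 3555136 to 3806993 (252 kb) and ended just before the boundary of the left arm. Its edges differed by little between the lists, since the replicate 2 gap ran from 3554960 to 3807158. The next ran from 1665387 to 1860834 (195 kb), from 4054757 to 4237442 (183 kb, in the centre near its left border), from 2571368 to 2751120 (180 kb) and from 3308655 to 3481861 (173 kb). All but 1 of these 5 lay in the left arm. The series-wide list, which has many more and narrower peaks, put between 1 and 5 peaks into each of them, covering at most 0.611% of the stretch.

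The longest gap of each single list was at another place. In replicate 1 it ran from 5082782 to 5345955 (263 kb) in the centre, where replicate 2 had 2 peaks inside it, with low ranks of 7.90 and 24.8. It was followed by gaps of 252, 238, 197 and 187 kb that started at 3555136, 2239248, 1664289 and 3084740, all in the left arm. In replicate 2 the longest ran from 3119679 to 3481867 (362 kb) in the left arm, where replicate 1 had 2 peaks, with ranks of 2.56 and 25.7. It was followed by gaps of 252, 208, 196 and 187 kb that started at 3554960, 913954, 1665387 and 14564407. The longest gap of each list thus held 2 low-ranking peaks of the other list.

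**Figure D5:**
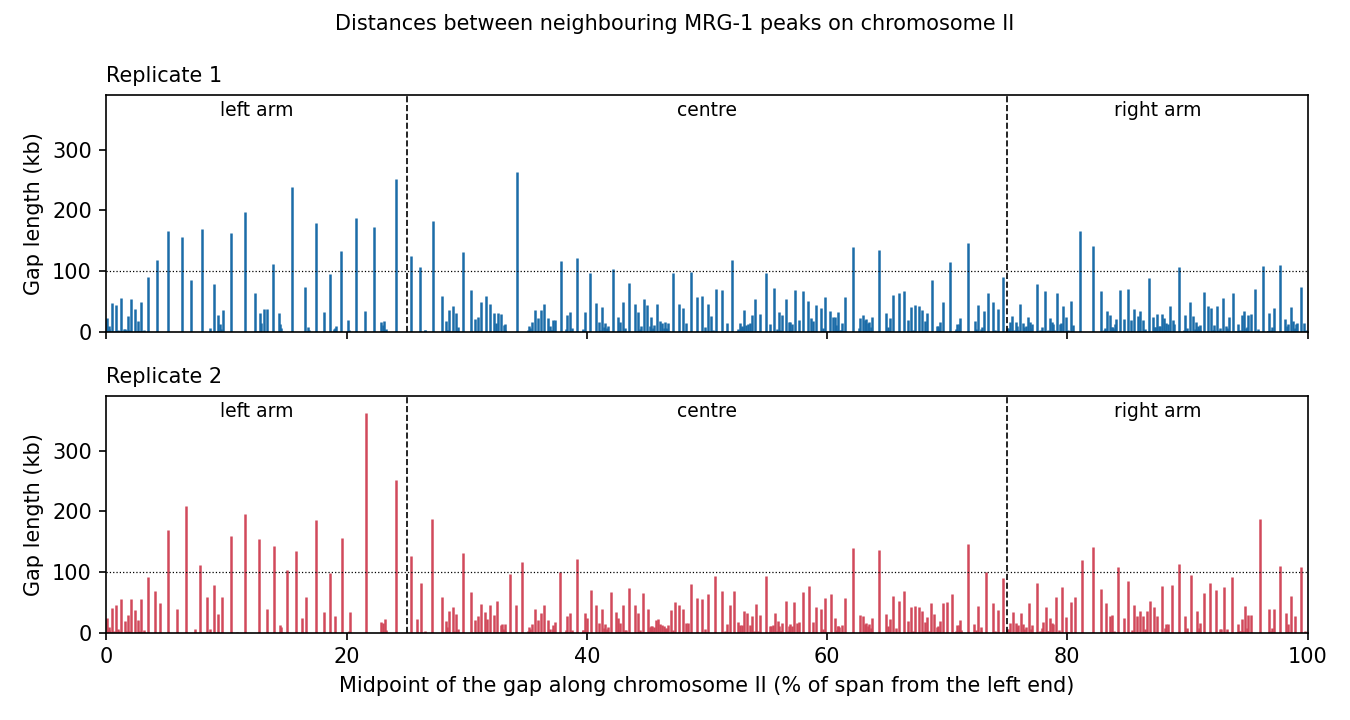
Length of each gap between neighbouring MRG-1 peaks (kb) at its midpoint along chromosome II, as % of the span from the left end, replicate 1 above and replicate 2 below; the dotted line marks 100 kb and dashed lines the arm boundaries. Gaps over 100 kb stand closest together in the left arm, and the longest reach 263 kb in replicate 1 and 362 kb in replicate 2.

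Many peaks had a close neighbour in spite of these gaps. A distance of at most 3 kb separated 181 of 535 neighbouring pairs in replicate 1 (33.8%) and 144 of 472 in replicate 2 (30.5%). When peaks at most 3 kb apart were joined into chains, 291 peaks of replicate 1 fell into 110 chains of 2 or more, and 239 peaks of replicate 2 into 95 such chains. In the right arm 59.4% and 60.2% of peaks were in such chains, and in the centre 48.2% and 48.9%. In the left arm the replicates differed, at 60.6% of 94 peaks in replicate 1 and 38.2% of 68 peaks in replicate 2.

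In both lists the longest run, by number of peaks and then bases, was the same stretch of the right arm. It ran from 14382697 to 14413663 in replicate 1, against 14382559 to 14413639 in replicate 2, with 6 peaks in each. Peaks filled 88.0% of it in replicate 1 and 79.6% in replicate 2, at median ranks of 78.9 and 69.3. A second run from 12210337 to 12226908 was also shared, with 5 peaks in replicate 1 and 6 in replicate 2, at lower median ranks of 46.9 and 34.6. Another run of 6 peaks in replicate 1, from 14749899 to 14763133, was made of weak peaks with a median rank of 6.62 and met a single peak in replicate 2. The others among the 5 longest runs of each list had 5 peaks and started at 14342873 and 11524238 in replicate 1, and at 8559148, 9319063 and 10778587 in replicate 2. All 5 of the top runs of replicate 1 lay in the right arm, while 3 of the 5 of replicate 2 lay in the centre.

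The lists were then compared peak by peak. On chromosome II, 398 of 536 replicate 1 peaks shared at least 1 bp with a peak of replicate 2 (74.3%, exact 95% interval 70.3 to 77.9), where 73.4% of the whole replicate 1 list did. In the other direction it was 393 of 473 (83.1%, 79.4 to 86.4), where 79.8% of the whole replicate 2 list did. The intervals cover counting error only and include the background share of each list. In bases the lists had 1.42 Mb in common, which was 77.3% of the bases of replicate 1 and 81.5% of those of replicate 2.

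Overlap rose with score. Among the peaks of chromosome II ranked 25 or lower, 40.7% of 113 in replicate 1 and 51.4% of 109 in replicate 2 met a peak of the other list. Among those ranked over 75, 97.6% of 164 and 98.7% of 159 did. Of peaks of 5000 bp or more, 94.6% and 96.3% overlapped. A wide peak meets the 1 bp rule more easily than a narrow one, and the part of this in the rise was not tested.

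Peaks without a counterpart lay in different parts in the replicates. In replicate 1, 39.4% of the 94 peaks of the left arm and 40.1% of the 187 peaks of the right arm had none, against 10.2% of the 255 peaks of the centre. In replicate 2 it was 14.7% of 68, 10.5% of 133 and 20.6% of 272. The same arrangement was seen on each of the other 4 autosomes, where the unmatched share of replicate 1 ran from 34.0% to 50.5% in the arms and from 11.3% to 13.2% in the centres. In replicate 2 it ran from 2.78% to 12.1% in their arms and from 19.4% to 25.6% in their centres. The unmatched peaks of chromosome II were narrow, with median widths of 1538 and 1588.5 bp, and low in rank, with medians of 25.5 and 16.5. Nearly all of them, 131 of 138 and 79 of 80, overlapped a series-wide peak. This does not set them apart, since only 7 of all 536 peaks in replicate 1 and 1 of all 473 in replicate 2 overlapped none.

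A few strong domains nevertheless appeared in a single list. In replicate 1 a domain of the centre from 4953336 to 4960459 ranked at 94.2, and the nearest replicate 2 peak was 14.2 kb away. Domains from 7695762 to 7702195 and from 8022947 to 8029371 ranked at 91.6 and 89.4 in replicate 1 and also overlapped no replicate 2 peak. The nearest lay 11.7 and 4.21 kb away. In replicate 2 a domain from 8460486 to 8470096 ranked at 93.7, with the nearest replicate 1 peak 16.2 kb away. It was followed by domains from 8575259 to 8581336, at 77.9, and from 8456532 to 8460220, at 73.3. Their nearest replicate 1 peaks lay 3.18 and 12.2 kb away. The domain that ended at 8460220 lay just to the left of the one that started at 8460486. All 6 lay in the centre, and series-wide peaks covered between 64.0% and 91.5% of each.

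Where peaks matched, the median difference at each end was small, but most pairs differed by more than 250 bp at 1 end or both. Each of 372 pairs was the best match in both directions, and the starts differed by a median of 123 bp and the ends by a median of 143 bp. Both ends lay within 250 bp in 141 pairs (37.9%), and at least 1 end differed by more than 1000 bp in 109 pairs (29.3%). Spearman's rho across these pairs was 0.84 for rank and 0.83 for width. In the centre the paired peaks were slightly wider in replicate 2, with a median width ratio of replicate 2 to replicate 1 of 1.09 over 208 pairs. In the arms they were narrower, with ratios of 0.865 over 56 pairs on the left and 0.948 over 108 pairs on the right. Of replicate 1 peaks, 26 met more than 1 replicate 2 peak, and 34 replicate 2 peaks met more than 1 replicate 1 peak, up to 3 in each direction.

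The series-wide list, called with MACS v2 where the replicate lists name MACS, held narrower peaks. Whether these are separate parts of a domain was not tested. The list placed 2381 peaks on chromosome II, with a median width of 343 bp. Of these, 45.8% overlapped peaks of both replicates and held 70.9% of the list's bases on the chromosome. A further 27.6% overlapped neither, where 31.5% did over all nuclear chromosomes, the X included. Replicate peaks under 1500 bp met a median of 1 series-wide peak in each list, and domains of 5000 bp or more a median of 5, with up to 14 in replicate 1 and 12 in replicate 2. A wider domain has room for more of these peaks, and their number per base was not compared. Series-wide peaks filled 44.8% and 51.9% of the bases of the narrow class and 76.3% and 75.4% of those of the broad class.

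In the 10 strongest shared domains, between 2 and 6 series-wide peaks filled 76.0% to 89.7% of the replicate 1 domain. The widest shared domain, from 4695828 to 4710054, was filled to 93.0% by 6 such peaks. The domain that started at 14354909 held 7 that filled 86.4%, and the one at 11868314 held 6 that filled 64.8%. The domain from 9043453 to 9057931 held 10 that filled 60.9%, and the one that started at 8033672 held 12 that filled 73.8%. The wide domains were not tested against the strong ones. The series-wide list had no replicate, so no error can be given for these values.

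Peaks also reached the left end of the chromosome. The first peak ran from 2 to 890 in replicate 1, against 2 to 888 in replicate 2, with ranks of 31.6 and 14.7. The last ended at 15243261 in replicate 1 and at 15237922 in replicate 2, both with low ranks of 17.1 and 2.38. The first peaks of the lists overlapped each other, and the last peaks did not.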

How the data were processed

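The data were peak lists for 2 MRG-1 ChIP libraries and 1 list for the whole series, all in WormBase WS220 coordinates per the file headers. Peaks were called with MACS (replicates, per sample) and MACS v2 (series-wide), per the source column of the deposited lists. BWA and ce10 are named, without a role, in the submitters' processing notes. How the callers were set and filtered, and how the series-wide list was made, is not stated in the sources used. The deposited values are the authors' score for each peak, undefined in the headers. The score starts at 50 in both replicate lists and was used only for ranks within a list.

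The 1 mitochondrial peak of replicate 2 was left out of ranks and comparisons. Overlap meant at least 1 shared bp, and paired peaks were best matches in both directions. Intervals are exact (Clopper-Pearson). Read depth is unknown. The sign-flip test ran over the 2 lists; none was run over peaks or windows, which are not replicates. The named regions were the 10 shared peaks with the highest mean rank, the 5 widest, the 5 longest gaps of each list and of both, the 5 longest chains per list, the 5 most covered windows, all windows free of peaks, the first and last peaks and the 3 highest unmatched peaks per list. The members, lists and rules were chosen with earlier results of these data known. No genome or annotation of WS220 was used, so regions are given by position, without genes or sequence. Procedures were tested on simulated data. The software was scipy 1.17.1, pandas 2.3.3, numpy 2.4.6 and matplotlib 3.10.9 under Python 3.11.15.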

Additional observations from a re-analysis of the deposited data

Results flagged for a closer look

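The left-to-right arm ratio of coverage went in opposite directions on chromosome II and on chromosomes I, IV and V, with the left arm poorer on II and richer on I, IV and V in both lists. Chromosome III went the same way as II, with log2 ratios of -0.65 in replicate 1 and -0.78 in replicate 2. The mean log2 ratio of II lay below that of I by a difference of -1.41, below that of IV by -1.84 and below that of V by -1.58. These differences were not tested.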

How the results depend on the processing

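Of 57 alternatives, 33 kept the value to within a set margin, 23 moved by more and 1 reversed. The margin was the SD over the lists for log2 ratios, covered share and the longest stretch. For overlap shares it was the exact interval, and for counts a fixed fold difference. With 2 lists, dropping either shifts a mean by less than their SD, so that setting is a weak check. Alternatives built on peaks that overlap the other list, on the right-arm-to-centre ratio and on named domains were chosen after seeing the data. The log2 left-to-right ratio stayed below 0 in 9 of 9 alternatives. It was -1.07 with the chromosome cut into 3 equal parts, -0.86 with arms of 20%, -0.98 in peaks per Mb and -1.15 in the series-wide list, and -1.33 to -1.18 without either replicate. The log2 right-arm-to-centre ratio reversed to 0.20 without replicate 2 and was -0.46 without replicate 1. Covered share was 8.73% when only the strongest 50% of peaks were kept and 10.2% in the series-wide list. Overlap of replicate 1 and replicate 2 peaks was 81.9% and 88.2% among those strong peaks, 63.1% and 71.5% with 50% of each peak shared, and 40.3% and 45.7% with midpoints within 250 bp, a rule that 6 of the 10 strongest and 3 of the 5 widest domains met. Windows free of peaks numbered 25 among the strong peaks, 14 to 17 without either replicate, 1 in the series-wide list, 65 at 50 kb and 1 at 200 kb. The longest free stretch was 427 kb among the strong peaks, 263 to 362 kb without either replicate and 159 kb in the series-wide list. Settings that keep fewer peaks or use other windows change these numbers by construction; elsewhere the cause was not tested. Read depth is unknown, so a missing peak cannot be told apart from one not detected at low depth. No paired analysis was possible because only the ChIP samples carry values here and the inputs, numbered alike, were not analysed.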

Other observations

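The values below were picked after they were seen and carry no test. The replicates differed most in the window from 13.8 to 13.9 Mb in the right arm, where replicate 1 had 12 peaks and 35.7% coverage, replicate 2 had 7 peaks and 11.5%, and the series-wide list had 33 peaks and 23.5%. In the opposite direction, the window from 8.4 to 8.5 Mb was covered at 6.38% in replicate 1 and 25.4% in replicate 2.

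Some paired domains had very different ranks. The domain from 10393271 to 10397934 ranked at 13.2 in replicate 1 and at 78.6 in replicate 2, with starts 363 bp apart and ends 31 bp apart. The domain from 10536788 to 10546653 ranked at 96.5 in replicate 1 and at 32.8 in replicate 2, where it was 13384 bp wide against 9866 bp. Of the 372 pairs, 49 differed by 25 percentile points or more, 30 with the higher rank in replicate 1 and 19 in replicate 2.

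The widest series-wide peak of chromosome II, from 4944090 to 4951329 (7240 bp, rank 91.7 in that list), overlapped no peak of either replicate. It lay 2006 bp from the nearest replicate 1 peak, which is the strong domain without a replicate 2 counterpart that starts at 4953336, and 4946 bp from the nearest replicate 2 peak.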
